A study of Mus musculus with 6 samples.

Results

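The TNF ligand and receptor superfamilies were examined in CNS monocytes of rIFN-β-treated mice with EAE. They were taken as the protein-coding genes whose GENCODE M21 symbol begins with Tnfsf or Tnfrsf, together with *Tnf*, *Lta*, and *Ltb*. This gave 35 of the 54232 genes in the files, of which 15 encode ligands and 20 encode receptors. WT monocytes (CD45.1) and *Ifnar1*-/- monocytes (CD45.2) were sorted from chimera mice, which were irradiated GFP+ recipients of equal numbers of BM cells from WT and *Ifnar1*-/- donors. EAE, a mouse model of multiple sclerosis, was induced 6 to 7 weeks after BM transfer, every mouse received 30000 IU of rIFN-β per day, and GFP-CD45+CD11b+Ly6ChiLy6G- monocytes were collected from the CNS at disease peak. There were 3 libraries of each genotype and none from mice without rIFN-β, so the comparison is between monocytes with and without the type I IFN receptor under treatment. Because the CD45 allele differed between the donors in the same way as the receptor, genotype and donor origin cannot be told apart. The ages of the mice are not given in the sources used here, nor is which recipient gave which library. Each recipient carried BM cells of both genotypes, and as many recipients are listed as libraries of each genotype. By that count WT and *Ifnar1*-/- libraries came from the same recipients, but which libraries form pairs is not given. The main test therefore treated them as unpaired. Its p-values measure the spread between these libraries, which may be technical.

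Ligands of the TNF superfamily are trimeric proteins, mostly made as membrane proteins that can be shed, and they bind receptors with cysteine-rich extracellular domains. Some receptors carry a death domain and can start apoptosis or necroptosis, whereas others recruit TRAF adaptors and activate NF-κB, and a few are decoys that bind ligand without a full signal. In inflamed CNS tissue, monocytes are known as a source of TNF, and several members carry signals between myeloid cells and T cells.

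Libraries held from 4531782 to 7321380 expected counts (RSEM estimates of reads per gene). The 35 genes took from 0.0747% to 0.107% of these counts, that is from 4298 to 7477 counts per library. Values are given as normalized CPM, counts scaled by the TMM-adjusted library size, for comparisons between libraries, and as TPM, which is corrected for transcript length, for comparisons between genes. The lowest level treated as detected, a count of 3, was worth 0.427 to 0.638 normalized CPM and covers counting error only. *Ifnar1*, the targeted gene, had 153, 126, and 111 normalized CPM in WT and 110, 102, and 109 in *Ifnar1*-/- libraries, so its transcript was not lost. Gene-level counts can also include exons outside the disrupted part and therefore do not check the labels. The difference in *Ifnar1* was 0.28 on the log2 scale (SE 0.15) and did not pass the edgeR test (adjusted p = 0.360). All 9 monocyte markers examined were present, with summed levels of 9062 to 10734 normalized CPM in WT and 9038 to 10360 in *Ifnar1*-/- libraries. Single markers differed, with 5 of 9 at an unadjusted p under 0.05, 1 called by edgeR, and 4 called by DESeq2. Of all 11254 tested genes, 2006 had such a p in edgeR and 2.13% were called by edgeR. *Ly6c2*, which encodes the sort marker Ly6C, was called, with 640 to 788 normalized CPM in WT and 177 to 337 in *Ifnar1*-/- libraries (log2 fold change 1.40, SE 0.23, edgeR adjusted p = 0.00957). *Ccr2*, the chemokine receptor of inflammatory monocytes, had 587 to 694 normalized CPM in WT and 794 to 1269 in *Ifnar1*-/- libraries (log2 fold change -0.62, edgeR adjusted p = 0.143), and it was called by DESeq2 (adjusted p = 0.0416) and without the filter on low counts. The sorted cells also held RNA of T cell genes: 16 markers such as *Cd3e* and *Lck* summed to 33.6 to 76.2 normalized CPM in WT and 14.6 to 33.9 in *Ifnar1*-/- libraries. All 16 had a higher mean in WT, and of the 11 that could be tested 0 were called by edgeR or by DESeq2, although 9 had an unadjusted p under 0.05 and the median log2 fold change was 1.48. Without the filter on low counts, 9 of the 16 were called by edgeR. In bulk RNA, fewer cells of a type and less RNA per cell cannot be told apart. The B cell marker *Pax5* was at 0 counts in every library, and B cell markers summed to 5.10 to 11.7 normalized CPM in WT and 2.29 to 5.70 in *Ifnar1*-/- libraries. Most of each sum was the marker *Cd22*, with 3.61 to 9.96 normalized CPM in WT and 1.99 to 4.6 in *Ifnar1*-/- libraries. NK cell markers summed to 6.80 to 21.7 normalized CPM in WT and 1.69 to 7.33 in *Ifnar1*-/- libraries, and dendritic cell markers to 23.2 to 30.2 and 13.6 to 25.3. Neutrophil markers summed to 342 to 1132 and 634 to 1532, although *Ly6g*, the marker used to gate neutrophils out, had at most 4 counts in any library. Microglia markers summed to 278 to 333 and 323 to 386 normalized CPM.

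The 4 members of highest mean TPM were receptors, and ligands and receptors were mixed below them. *Tnfrsf1b* (TNFR2) was the most abundant member, with 92.8 ± 22.3 TPM (SD, n = 6) over all libraries, and it took 23.0% of the members' TPM on average. *Tnfrsf1a* (TNFR1), which carries the death domain of the TNF receptors, followed with 69.7 ± 10.6 TPM, and *Tnfrsf14* (HVEM), a receptor for LIGHT, with 47.0 ± 10.0 TPM. In each of the 6 libraries *Tnfrsf1b* was above *Tnfrsf1a*, and *Tnfrsf1a* was above *Tnfrsf14*. *Tnfrsf13b* (TACI), a receptor best known from B cells, came next with 28.1 ± 3.66 TPM. *Tnf* was the most abundant ligand, with 26.8 ± 6.42 TPM, and it was not separated from *Tnfrsf13b*, which was higher in 3 of 6 libraries. *Tnfsfm13* (19.3 ± 5.00 TPM), *Tnfsf13* (17.3 ± 3.69 TPM), and the death domain receptor *Tnfrsf21* (16.2 ± 3.54 TPM) overlapped in their ranges. *Tnfrsf11a* (12.5 ± 1.98 TPM) and *Tnfrsf9* (10.5 ± 2.23 TPM) followed. *Tnfrsf11a* was above *Tnfrsf9*, and *Tnfrsf9* above *Tnfsf14*, in 5 of 6 libraries. The members from *Tnfsf14* to *Tnfrsf23* lay between 8.97 and 5.83 TPM, and no neighbour among them was above the next in all 6 libraries. Below them, *Tnfrsf18*, *Tnfsf10*, *Tnfrsf22*, and *Tnfrsf8* ranged from 2.71 down to 0.747 TPM. WT library 1 had the lowest TPM of *Tnfrsf1a* and *Tnfrsf9* in the experiment but not their lowest normalized CPM, so differences between genotypes were read from normalized CPM.

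**Figure D1:**
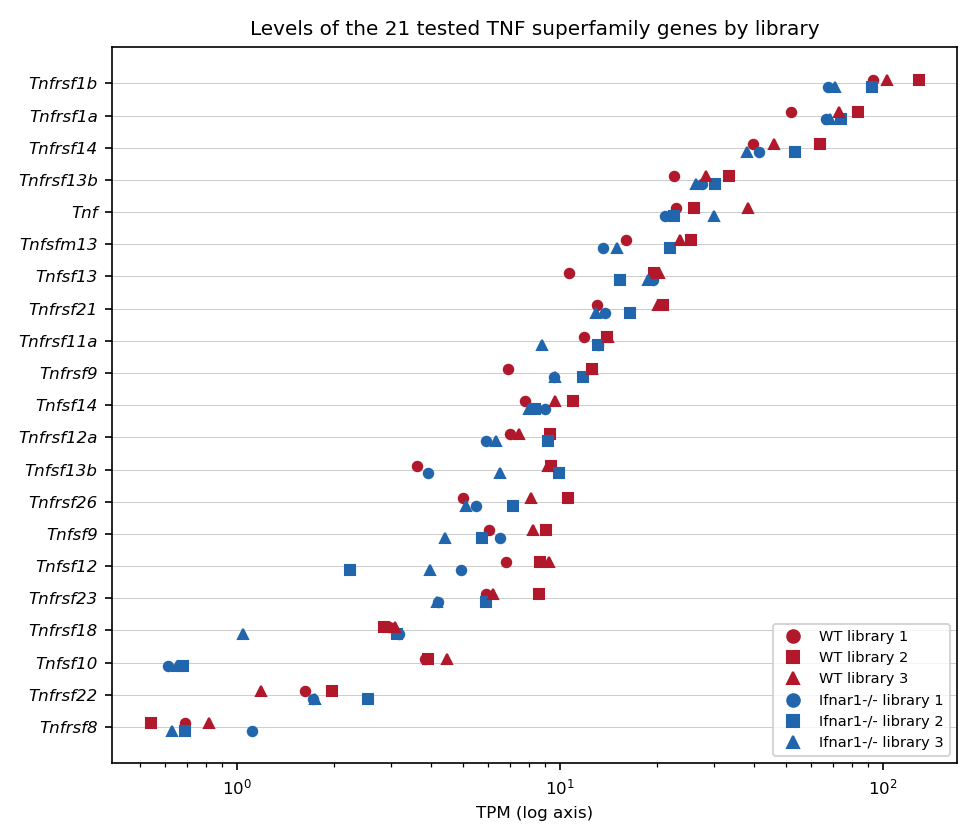
TPM (horizontal log axis) of the 21 members that passed the expression filter, ordered by mean TPM, with 1 point per library (WT in red, Ifnar1-/- in blue). *Tnfrsf1b*, *Tnfrsf1a*, and *Tnfrsf14* lead, and WT and Ifnar1-/- points do not overlap for *Tnfsf10* (3.82 to 4.47 against 0.61 to 0.68 TPM), *Tnfsf12* (6.82 to 9.22 against 2.23 to 4.92 TPM), and *Tnfrsf1b* (93.2 to 129 against 67.7 to 92.6 TPM).

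Of the 35 members, 21 had enough counts to be tested (8 ligands and 13 receptors), and 1 was differentially expressed, the ligand *Tnfsf10*, which was upregulated in WT monocytes. A gene was called in the edgeR quasi-likelihood test across 11254 genes when it changed at least 1.5-fold and its adjusted p did not exceed 0.05. Of all tested genes 2.13% were called (1.67% of all tested genes were called higher and 0.462% lower in WT), so 1 of 21 members is close to the share of all genes. None of the 13 tested receptors was called by edgeR or by DESeq2, while 2 of them had an unadjusted p under 0.05 in edgeR. Of all 11254 tested genes, 2006 had such a p. WT libraries were all above *Ifnar1*-/- libraries in 5 of the 21 members (*Tnfsf10*, *Tnfsf12*, *Tnfsf9*, *Tnfrsf1b*, and *Tnfrsf21*) and all below in 0, against 11.1% and 12.2% of all tested genes. The log2 fold change was above 0 in 18 of 21 members, with a median of 0.22, against 48.2% and -0.01 for all tested genes. Without WT library 1, 15 of the 21 were above 0, and in TPM 16 were. For 6 members (*Tnfsf14*, *Tnfsfm13*, *Tnfrsf11a*, *Tnfrsf14*, *Tnfrsf1a*, and *Tnfrsf9*) the 95% interval lay inside a 1.5-fold change in either direction. The other 14 members that were not called had intervals that reach past a 1.5-fold change, so a change of that size was not excluded for them.

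*Tnfsf10* (ENSMUSG00000039304.11, GRCm38 chromosome 3, 27317028 to 27342427, plus strand) encodes TRAIL, a ligand that can trigger apoptosis through death receptors and is known as an interferon-inducible gene. It had 25.9, 13.2, and 18.8 normalized CPM in the WT libraries 1, 2, and 3, from 182, 62, and 95 counts. In *Ifnar1*-/- libraries it had 3.36, 2.54, and 2.39 normalized CPM, from 22, 15, and 13 counts. The lowest WT library was thus well above the highest *Ifnar1*-/- library, and the spread among WT libraries was wide. The means were 19.3 ± 6.38 (SD, n = 3) and 2.76 ± 0.521 (SD, n = 3), a 6.94-fold difference with a 95% interval from 4.36 to 11.0. On the log2 scale this was 2.79 (SE 0.30), with an adjusted p of 0.000640 in edgeR, and in fits that each left out 1 library it was between 2.52 and 3.02, with *Tnfsf10* called each time. On the log2(TPM + 1) scale, which understates low genes, the difference was 1.62 and was also called. The two-sided exact permutation test gave p = 0.1, and no smaller p can arise with 3 libraries in each group.

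T cell markers were also higher in WT libraries, and TRAIL is made by activated T cells and NK cells as well as by monocytes. WT library 2 and *Ifnar1*-/- library 1 had nearly the same T cell marker sum, 33.6 and 33.9 normalized CPM, and 13.2 and 3.36 normalized CPM of *Tnfsf10*. The highest T cell marker sums, 74.0 in WT library 1 and 76.2 in WT library 3, went with the highest *Tnfsf10* levels in normalized CPM. In TPM, *Tnfsf10* was 3.82, 3.89, and 4.47 in WT libraries 1, 2, and 3, so WT library 1 was the lowest of them. Of the 11 tested T cell markers, 7 were higher in every WT library than in every *Ifnar1*-/- library, against 11.1% of all tested genes. The median log2 fold change over the 11 was 1.48. The part of T cell RNA in the *Tnfsf10* difference was not tested.

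**Figure D2:**
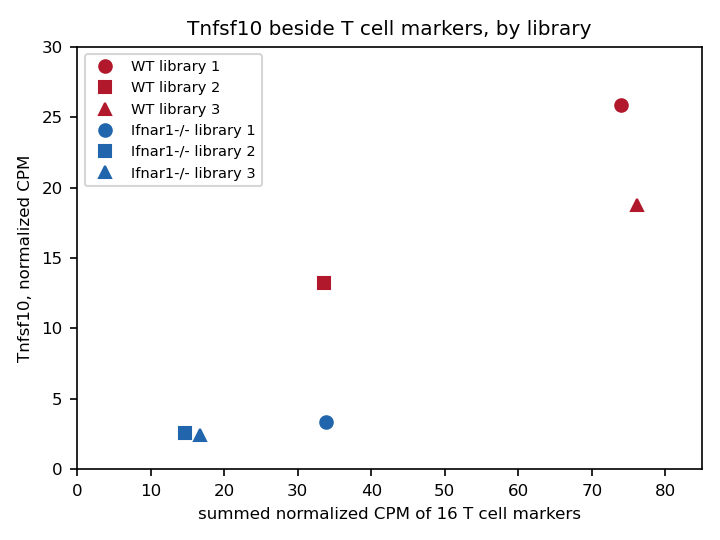
*Tnfsf10* in normalized CPM (vertical axis) against the summed normalized CPM of 16 T cell markers (horizontal axis), with 1 point per library. WT library 2 (33.6) and Ifnar1-/- library 1 (33.9) share a T cell marker sum but differ in *Tnfsf10* (13.2 against 3.36).

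Of the receptors for TRAIL, *Tnfrsf10b* could not be tested, and *Tnfrsf23* and *Tnfrsf22* were tested and not called. *Tnfrsf10b*, the death receptor for TRAIL in mice, was at 7, 6, and 5 counts in WT and 9, 1, and 1 in *Ifnar1*-/- libraries, too few to be tested. Its level was between 0.987 and 1.28 normalized CPM in WT and between 0.169 and 1.37 in *Ifnar1*-/- libraries, where 2 of 3 lay under the floor. *Tnfrsf23* and *Tnfrsf22*, which encode decoy receptors for TRAIL, lie beside *Tnfrsf26* within 78.2 kb of chromosome 7 and have similar sequences, so RSEM may have divided reads between them. *Tnfrsf23* had 14.5, 15.7, and 8.49 normalized CPM in WT and 7.48, 11.7, and 8.09 in *Ifnar1*-/- libraries. WT libraries 1 and 2 were high and library 3 lay among the *Ifnar1*-/- values, giving a log2 fold change of 0.51 (95% interval -0.11 to 1.12, adjusted p = 0.367 from edgeR). *Tnfrsf22* was scarcer, with 1.38 to 4.13 normalized CPM in WT and 1.83 to 2.76 in *Ifnar1*-/- libraries, and the log2 fold change of 0.22 turned to -0.26 without WT library 1. Summed, both decoy receptors had a log2 fold change of 0.45 (95% interval -0.15 to 1.05, adjusted p = 0.418 from edgeR). *Tnfrsf26*, their neighbour with a less well defined role, had 20.6, 30, and 23.1 against 18.5, 20.7, and 17.1 normalized CPM, with a log2 fold change of 0.38 (adjusted p = 0.313 from edgeR). An antisense gene, *E230032D23Rik*, overlaps all 3 receptor genes. *Tnfrsf11b*, which encodes the soluble decoy osteoprotegerin, had 0 counts in all 6 libraries, which allows up to 0.638 normalized CPM in the shallowest of them. In the TRAIL axis the ligand alone was called, but this does not set the receptors apart from it. *Tnfrsf10b* and *Tnfrsf11b* could not be tested, and the intervals of *Tnfrsf23* and *Tnfrsf22* reach past a 1.5-fold change. Differences between the fold changes were not tested.

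The promoter of *Tnfsf10* is shown because it is the differentially expressed member, with those of *Tnfrsf1b*, the most abundant member, and *Tnfrsf14*, an abundant member whose levels lay close together. The sequences are from RefSeq (GRCm38.p6), each of 300 bases, with 250 before and 50 after the annotated start, written 5′ to 3′ on the gene's own strand. Capitals mark letters that match an interferon-stimulated response element (ISRE, GAAANNGAAA) or an interferon-gamma-activated site (GAS, TTCNNNGAA) on either strand.
Tnfsf10, chr3:27316827-27317126, plus strand: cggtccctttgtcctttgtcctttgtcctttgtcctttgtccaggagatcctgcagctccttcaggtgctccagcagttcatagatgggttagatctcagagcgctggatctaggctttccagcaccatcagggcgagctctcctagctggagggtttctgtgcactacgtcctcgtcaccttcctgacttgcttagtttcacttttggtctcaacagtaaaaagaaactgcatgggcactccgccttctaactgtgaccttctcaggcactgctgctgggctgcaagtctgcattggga
Tnfrsf1b, chr4:145246821-145247120, minus strand: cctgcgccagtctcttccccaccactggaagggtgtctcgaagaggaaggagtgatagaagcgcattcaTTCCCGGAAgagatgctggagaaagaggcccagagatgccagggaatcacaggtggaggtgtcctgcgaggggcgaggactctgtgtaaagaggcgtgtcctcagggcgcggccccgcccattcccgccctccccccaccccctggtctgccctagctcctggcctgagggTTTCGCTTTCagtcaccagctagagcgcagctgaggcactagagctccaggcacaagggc
Tnfrsf14, chr4:154928028-154928327, minus strand: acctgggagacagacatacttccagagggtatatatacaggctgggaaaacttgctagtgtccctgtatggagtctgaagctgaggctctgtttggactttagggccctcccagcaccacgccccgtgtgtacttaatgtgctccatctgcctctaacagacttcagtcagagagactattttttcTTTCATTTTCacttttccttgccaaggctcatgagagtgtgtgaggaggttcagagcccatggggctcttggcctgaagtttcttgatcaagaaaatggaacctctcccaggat
The *Tnfsf10* window held no match to either motif, which says only that these letters are not in this window. The *Tnfrsf1b* window held a GAS match that begins at base -181 and an ISRE match that begins at base -10, both counted from the start site. *Tnfrsf14* held an ISRE match that begins at base -64, and its expression did not pass the test. Windows were available for 28 of the 35 members, 32 windows in all. The ISRE letters were in 4 of these 32 (*Tnfrsf1b*, *Tnfrsf14*, *Tnfrsf17*, and *Tnfsf13b*), against 3.44% of all 32851 windows. The GAS letters were in 8 of 32 (of *Lta*, *Ltb*, *Tnfrsf18*, *Tnfrsf19*, *Tnfrsf1a*, *Tnfrsf1b*, *Tnfrsf25*, and *Tnfrsf9*), against 8.30% of all windows. Letters of the NF-κB motif were in 3 of 32 (*Ltb*, *Tnfrsf8*, and *Tnfrsf9*), against 4.51%, and in none of the 3 windows printed. A match of letters is a description and not evidence of binding.

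TNF itself and its receptors were measured at greater depth. *Tnf* (ENSMUSG00000024401.14, chromosome 17, 35199381 to 35202007, minus strand) had 46.4, 36.6, and 53.5 normalized CPM in WT and 35.6, 32.7, and 49.8 in *Ifnar1*-/- libraries. The third library was the highest in both genotypes and the values overlapped. The log2 fold change was 0.21 (95% interval -0.23 to 0.65, adjusted p = 0.617 from edgeR), which does not exclude a 1.57-fold increase. *Tnfrsf1a* (ENSMUSG00000030341.17, chromosome 6, 125349362 to 125362484, plus strand) had 140, 157, and 138 normalized CPM in WT and 143, 138, and 144 in *Ifnar1*-/- libraries. It was the member nearest to the same level in all libraries, with 145 ± 10.6 against 142 ± 3.43 normalized CPM (SD, n = 3) and a log2 fold change of 0.04 (95% interval -0.26 to 0.33).

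*Tnfrsf1b* (ENSMUSG00000028599.10, chromosome 4, 145213463 to 145246870, minus strand), the receptor without a death domain that is preferentially activated by membrane-bound TNF, had 477, 455, and 364 normalized CPM in WT monocytes. In *Ifnar1*-/- libraries it had 279, 334, and 287 normalized CPM. The lowest WT library was above the highest *Ifnar1*-/- library, and the log2 fold change was 0.53 (SE 0.16, 95% interval 0.17 to 0.88), a 1.44-fold difference. The adjusted p was 0.132 from edgeR and 0.0368 from DESeq2 (0.0368 to 0.682 over all alternatives), and the fold change was under the threshold of 1.5, so it was not called by either. The ratio of *Tnfrsf1b* to *Tnfrsf1a* TPM does not depend on library scaling. It was 1.80, 1.54, and 1.40 in WT and 1.02, 1.25, and 1.04 in *Ifnar1*-/- libraries, so WT monocytes had the higher ratio in every library. The mean log2 ratio was 0.65 ± 0.18 in WT and 0.14 ± 0.16 in *Ifnar1*-/- monocytes (SD, n = 3), a difference of 0.52 (two-sided exact permutation test, p = 0.1, which is as low as 6 libraries allow). A total of 2 ratios were tested in this way, and the smallest p possible cannot pass 0.05 before or after adjustment.

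**Figure D3:**
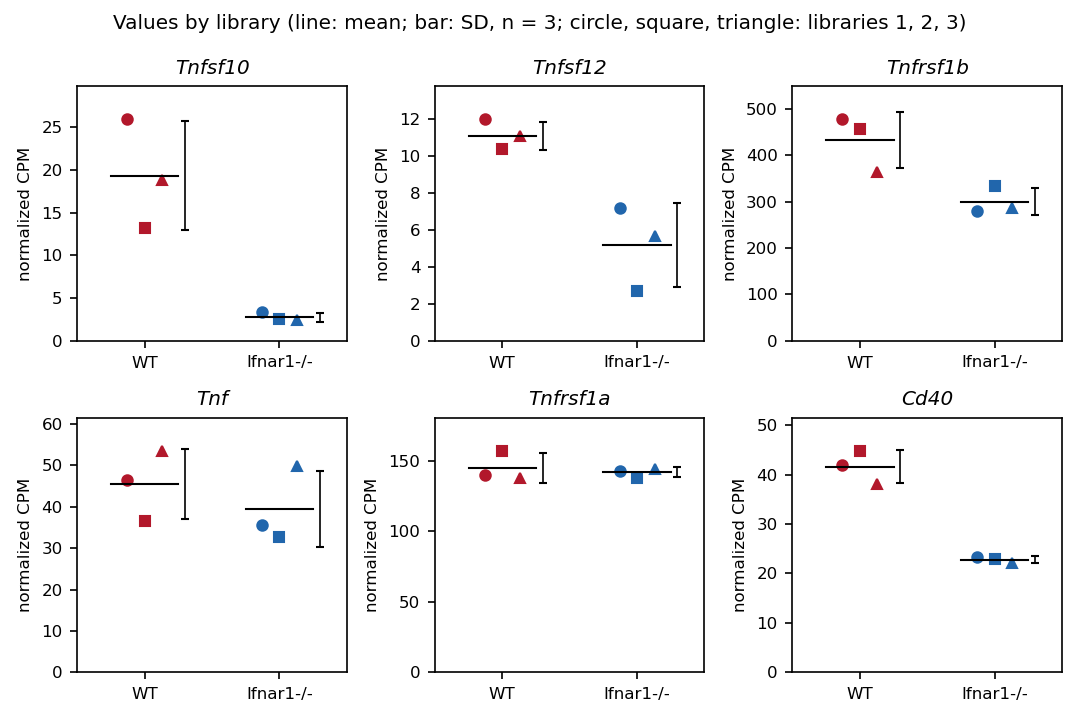
Normalized CPM (vertical axes, from 0) of 5 members and of *Cd40* in each library, with the group mean as a line and the SD (n = 3) as a bar. WT and Ifnar1-/- points do not overlap for *Tnfsf10*, *Tnfsf12*, *Tnfrsf1b*, and *Cd40*, and overlap for *Tnf* and *Tnfrsf1a*.

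*Lta* and *Ltb* encode the lymphotoxins, which are made mainly by lymphocytes and lie on either side of *Tnf* within 10.9 kb. *Lta* was at 0 to 9 counts and *Ltb* at 5 to 14 counts, too few to be tested. *Ltb* was at 1.06 to 2.76 normalized CPM in WT and 0.847 to 1.47 in *Ifnar1*-/- libraries, with overlapping groups. Both genes were therefore far below *Tnf* on the TPM scale, where *Ltb* reached at most 2.96 and *Lta* at most 0.76, against 21.1 to 38.2 for *Tnf*.

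The ligands TWEAK (*Tnfsf12*) and APRIL (*Tnfsf13*) are neighbours on chromosome 11, and a read-through gene, *Tnfsfm13*, spans both on the same strand (69682577 to 69696098). *Tnfsf12* (ENSMUSG00000097328.7) had 12.0, 10.4, and 11.1 normalized CPM in WT and 7.18, 2.71, and 5.70 in *Ifnar1*-/- libraries. WT libraries lay close together and above all *Ifnar1*-/- libraries, for a log2 fold change of 1.09 (SE 0.31, 95% interval 0.40 to 1.79), or 2.14-fold. The adjusted p was 0.115 from edgeR, and 0.00499 when no filter on low counts was used, the single setting under which it was called (0.00499 to 0.250 over all alternatives). *Tnfsf13* (ENSMUSG00000089669.7) had 18.4, 23.2, and 23.9 normalized CPM in WT and 27.5, 18.6, and 26.3 in *Ifnar1*-/- libraries, with a log2 fold change of -0.15 (95% interval -0.59 to 0.28). *Tnfsfm13* (ENSMUSG00000018752.19) had 30.5, 32.5, and 32.6 normalized CPM in WT and 24.7, 31, and 26.1 in *Ifnar1*-/- libraries, with a log2 fold change of 0.22 (95% interval -0.11 to 0.56).

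Reads of these 3 genes overlap, and the shares of counts that RSEM gave to *Tnfsf12* and *Tnfsf13* did not overlap between genotypes. What gave rise to these shares was not tested. *Tnfsf12* received 19.7%, 15.8%, and 16.4% of the counts of the locus in WT and 12.0%, 5.28%, and 9.83% in *Ifnar1*-/- libraries. *Tnfsf13* received 30.1%, 34.9%, and 35.4% in WT and 46.3%, 35.5%, and 45.2% in *Ifnar1*-/- libraries, a narrow separation of 35.4% from 35.5%. *Tnfsfm13* received 50.2%, 49.2%, and 48.2% in WT and 41.7%, 59.2%, and 45.0% in *Ifnar1*-/- libraries, with overlapping groups. The sum of the locus was 60.8, 66.1, and 67.5 normalized CPM in WT and 59.4, 52.4, and 58.1 in *Ifnar1*-/- libraries. On the log2 scale the fold change was 0.19 (95% interval -0.10 to 0.48, adjusted p = 0.477 from edgeR), so a 1.5-fold change of the whole locus lay outside the interval, although every WT sum was above every *Ifnar1*-/- sum. The values of the single genes are therefore uncertain. An antisense gene, *Tnfsf13os*, lies in the same locus. *Tnfrsf12a* (Fn14), the receptor for TWEAK, had 5.53 to 6.97 normalized CPM in WT and 5.34 to 7.12 in *Ifnar1*-/- libraries, with a log2 fold change of 0.05 (95% interval -0.51 to 0.60).

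**Figure D4:**
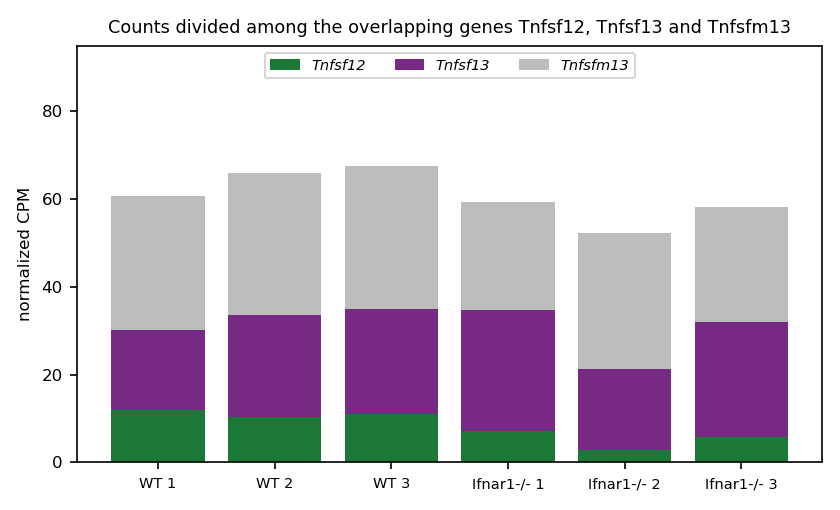
Normalized CPM of the locus of *Tnfsf12*, *Tnfsf13*, and *Tnfsfm13* in each library (stacked bars, from 0), divided by the share of expected counts that each gene received. The full height ranges from 52.4 to 67.5, while the *Tnfsf12* part is larger in each WT library than in each Ifnar1-/- library.

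BAFF (*Tnfsf13b*) and APRIL support B cells and plasma cells and share the receptors TACI (*Tnfrsf13b*) and BCMA (*Tnfrsf17*), while BAFF alone binds the BAFF receptor (*Tnfrsf13c*). *Tnfsf13b* had 6.26, 12.3, and 12.6 normalized CPM in WT and 6.11, 11.4, and 9.01 in *Ifnar1*-/- libraries, lowest in the first library of both genotypes. On the log2 scale the fold change was 0.22 (95% interval -0.49 to 0.93, adjusted p = 0.762 from edgeR), and a change up to 1.91-fold was not excluded. The TPM ratio of *Tnfsf13b* to *Tnfsf13* ranged from 0.337 to 0.481 in WT and from 0.201 to 0.651 in *Ifnar1*-/- libraries (difference in log2, 0.23, two-sided exact permutation test, p = 0.8). *Tnfrsf13b* had 31, 31.2, and 20.1 normalized CPM in WT and 35.6, 28.5, and 32.0 in *Ifnar1*-/- libraries, and WT library 3 was the lowest. On the log2 scale the fold change was -0.22 (95% interval -0.65 to 0.21, adjusted p = 0.594 from edgeR). *Tnfrsf13c* had at most 2 counts and *Tnfrsf17* at most 1 count in any library, so of the receptors for these ligands, TACI alone exceeded the floor of 3 counts.

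Among pairs that act between myeloid cells and T cells, ligands and receptors were both present for LIGHT and HVEM and for 4-1BBL and 4-1BB. *Tnfsf14* (LIGHT) had 18.4, 17.9, and 15.6 normalized CPM in WT and 17.4, 13.9, and 15.4 in *Ifnar1*-/- libraries, with a log2 fold change of 0.15 (95% interval -0.24 to 0.54). *Tnfrsf14* (HVEM) had 48.1, 42.5, and 38.3 against 40.8, 44.9, and 37.7 normalized CPM, with a log2 fold change of 0.07 (95% interval -0.26 to 0.39). For both genes the groups overlapped and the interval excluded a 1.5-fold change. *Tnfsf9* (4-1BBL) had 8.82, 9.14, and 8.29 normalized CPM in WT and 7.94, 5.93, and 5.33 in *Ifnar1*-/- libraries, all WT libraries being the higher. The log2 fold change of *Tnfsf9* was 0.44 (95% interval -0.09 to 0.97, adjusted p = 0.360 from edgeR), and in TPM its groups overlapped. *Tnfrsf9* (4-1BB), a costimulatory receptor, had 15.5, 13.2, and 17.0 normalized CPM in WT and 13.6, 14.7, and 16.7 in *Ifnar1*-/- libraries, and the log2 fold change was 0.02 (95% interval -0.39 to 0.43). *Tnfrsf9* overlaps *Camta1* on the opposite strand, and whether reads were counted by strand is not given in the sources used here.

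Other receptors of this kind were close to the limit of detection. *Tnfrsf18* (GITR) had 2.76 to 3.70 normalized CPM in WT and 1.10 to 3.05 in *Ifnar1*-/- libraries, and its 95% interval, from -0.52 to 1.34 in log2 fold change, was wide. *Tnfrsf4* (OX40), its neighbour within 15.1 kb, had 27, 3, and 10 counts in WT and 9, 2, and 6 in *Ifnar1*-/- libraries and was not tested. WT library 1, with the highest *Tnfrsf4* count, also had 14 of the 21 counts of *Tnfsf8* (CD30L) in the experiment and one of the highest T cell marker sums (74.0 normalized CPM). WT library 3, with the highest sum (76.2), had 10 counts of *Tnfrsf4* and 1 of *Tnfsf8*. The part of T cell RNA in these values was not tested. *Tnfrsf8* (CD30), which adjoins *Tnfrsf1b* on chromosome 4, had 1.70 to 3.13 normalized CPM in WT and 2.20 to 4.12 in *Ifnar1*-/- libraries, with a log2 fold change of -0.19 (95% interval -1.10 to 0.72). The ligands of OX40 and GITR, *Tnfsf4* and *Tnfsf18*, had 1 count and 0 counts in the experiment.

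Of the receptors for bone and tissue ligands, *Tnfrsf11a* (RANK), which drives osteoclast formation from myeloid precursors, was well expressed. It had 57.8, 45.7, and 41.5 normalized CPM in WT and 46.9, 38.0, and 41.2 in *Ifnar1*-/- libraries, with a log2 fold change of 0.20 (95% interval -0.16 to 0.57, adjusted p = 0.555 from edgeR). Its ligand *Tnfsf11* (RANKL), made by T cells and stromal cells, had 1 to 6 counts per library and was not tested. *Tnfrsf21* (DR6), a receptor with a death domain, had 63.0, 69.5, and 67.1 normalized CPM in WT and 55.0, 56.3, and 50.8 in *Ifnar1*-/- libraries. The groups did not overlap and the spread within each was small, but the log2 fold change was 0.30 (SE 0.13, 95% interval 0.01 to 0.59) with an adjusted p of 0.257 from edgeR, and in TPM the groups overlapped.

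**Figure D5:**
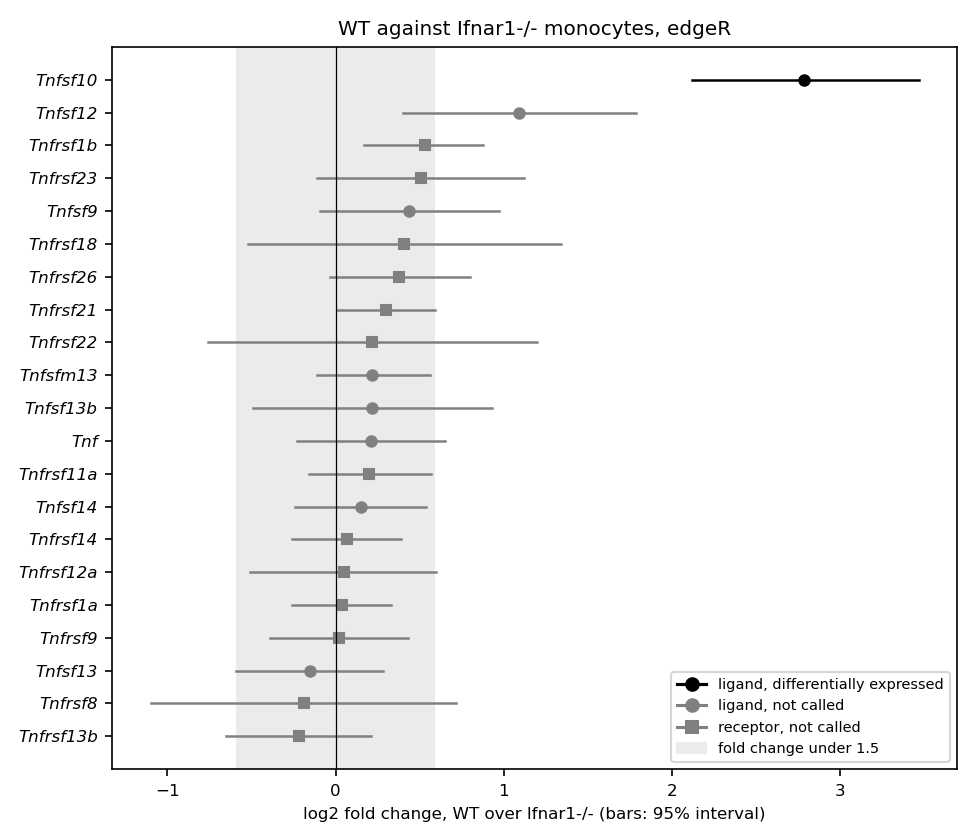
Log2 fold change of WT over Ifnar1-/- (horizontal axis) with 95% intervals for the 21 tested members, circles for ligands and squares for receptors. *Tnfsf10*, in black at 2.79, is the called member, and the grey band marks fold changes under 1.5.

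In total 14 members were not tested. *Tnfsf18* and *Tnfrsf11b* had 0 counts in every library. The 6 members *Tnfsf4*, *Tnfsf15* (TL1A), *Tnfrsf25* (DR3, the receptor for TL1A), *Tnfrsf13c*, *Tnfrsf17*, and *Tnfrsf19* (TROY) had at most 3 counts in every library, so no fold change is given for them. The other 6 (*Lta*, *Ltb*, *Tnfsf8*, *Tnfsf11*, *Tnfrsf4*, and *Tnfrsf10b*) exceeded 3 counts in at least 1 library and did not pass the filter. The highest mean among untested members was 1.97 TPM, for *Tnfrsf4*. Members lie on 11 chromosomes, with 9 on chromosome 4 and 7 on chromosome 17, and 5 of each were tested. None of the tested members on these chromosomes was called.

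Several genes of the same superfamilies carry other symbols and are outside the set above. Of 12 such genes, 4 were tested (*Cd40*, *Fas*, *Ltbr*, and *Relt*), and 1 was upregulated in WT monocytes, against 1.67% of all tested genes called higher in WT. *Cd40*, the receptor through which T helper cells activate antigen-presenting cells, had 42.0, 44.8, and 38.1 normalized CPM in WT and 23.4, 23.0, and 22.1 in *Ifnar1*-/- libraries. The groups were far apart relative to their spread, with a log2 fold change of 0.87 (SE 0.14, edgeR adjusted p = 0.00936). It was no longer called without *Ifnar1*-/- library 3 (adjusted p = 0.0525 from edgeR) or on the log2(TPM + 1) scale (adjusted p = 0.185 from limma), and over all alternatives the adjusted p was between 0.000275 and 0.185. The death receptor *Fas* was at 9.35 to 11.8 normalized CPM in WT and 10.1 to 10.8 in *Ifnar1*-/- libraries, with a log2 fold change of 0.01 (95% interval -0.42 to 0.45). Its ligand *Fasl*, a gene of cytotoxic lymphocytes, had 3, 5, and 14 counts in WT and 1, 0, and 1 in *Ifnar1*-/- libraries and was not tested, and T cell markers were higher in WT libraries too. *Ltbr*, the lymphotoxin β receptor, had a log2 fold change of 0.26 (95% interval -0.09 to 0.61), and *Relt* of 0.33 (95% interval -0.01 to 0.66). *Cd27*, *Cd40lg*, *Cd70*, *Eda*, *Edar*, *Eda2r*, and *Ngfr* did not pass the filter.

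The signaling genes downstream of the receptors gave 2 calls among 36 tested of 38, both upregulated in WT monocytes, against 1.67% of all tested genes called higher in WT. WT libraries were all above *Ifnar1*-/- libraries in 3 of the 36 (*Traf1*, *Rnf31*, and *Mlkl*) and all below in 7 (*Tradd*, *Map3k7*, *Tab3*, *Cyld*, *Tnip3*, *Bid*, and *Adam10*), against 11.1% and 12.2% of all tested genes. Of the latter, 0 were called by edgeR, 1 (*Tnip3*) had an unadjusted p under 0.05, and the log2 fold changes were between -0.56 (*Tnip3*, edgeR adjusted p of 0.150) and -0.13 (*Map3k7*, 0.08 on the log2(TPM + 1) scale). Of 16 tested adaptors and kinases (TRAFs, *Tradd*, *Fadd*, *Ripk1*, and the kinases that activate NF-κB) 0 were called by edgeR or DESeq2, 2 had an unadjusted p under 0.05, and the median log2 fold change was 0.13. Of all 11254 tested genes, 2006 had such a p in edgeR. *Traf1*, an adaptor that is itself an NF-κB target, had 39.7, 34.6, and 35.9 normalized CPM in WT and 29.0, 24.7, and 20.2 in *Ifnar1*-/- libraries. The groups of *Traf1* did not overlap, with a log2 fold change of 0.57 (SE 0.17, edgeR adjusted p = 0.119). *Traf2* (log2 fold change 0.22, 95% interval -0.22 to 0.65) and the kinase *Ripk1* (0.12, 95% interval -0.18 to 0.41) overlapped between genotypes.

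Among 11 ubiquitin ligases and inhibitors of the pathway, 1 was called, against 2.13% of all tested genes. *Rnf31* encodes HOIP, the catalytic subunit of the linear ubiquitin chain assembly complex. It had 51.1, 41.2, and 39.9 normalized CPM in WT and 22.8, 27.1, and 28.9 in *Ifnar1*-/- libraries, with a log2 fold change of 0.75 (SE 0.16, edgeR adjusted p = 0.0424). Leaving out any 1 of the 6 libraries ended this call (adjusted p from 0.0630 to 0.172), as did the log2(TPM + 1) scale (adjusted p = 0.786 from limma). *Tnfaip3*, which encodes the NF-κB inhibitor A20, was abundant and variable, with 546, 405, and 626 normalized CPM in WT and 392, 306, and 514 in *Ifnar1*-/- libraries, highest in the third library of both genotypes as for *Tnf*. Its log2 fold change was 0.38 (95% interval -0.11 to 0.87, adjusted p = 0.404 from edgeR). *Birc3*, the ubiquitin ligase cIAP2, had a log2 fold change of 0.16 (95% interval -0.13 to 0.46). *Tnip1*, with a log2 fold change of 0.72 (edgeR adjusted p = 0.264), was called only without the filter on low counts.

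Of 5 genes of the death arm, 1 was called, against 2.13% of all tested genes. *Mlkl*, the pseudokinase that executes necroptosis, had 45.5, 43.8, and 45.2 normalized CPM in WT and 22.1, 28.8, and 21 in *Ifnar1*-/- libraries. The difference was 0.90 on the log2 scale (SE 0.16, edgeR adjusted p = 0.0143), and the call was lost without WT library 3 (adjusted p = 0.0562), *Ifnar1*-/- library 1 (0.0963), or *Ifnar1*-/- library 3 (0.0837), and on the log2(TPM + 1) scale (log2 difference 0.72, adjusted p = 0.399 from limma). *Casp8*, the initiator caspase of death receptors, had a log2 fold change of 0.19 (95% interval -0.15 to 0.53), and *Cflar*, its inhibitor, of 0.19 (95% interval -0.20 to 0.57). Of the 4 tested genes for shedding of ligands and receptors, 0 were called by edgeR or DESeq2 and 0 had an unadjusted p under 0.05. *Adam17*, the protease that releases TNF and its receptors from the cell surface, had 155 to 181 normalized CPM in WT and 159 to 173 in *Ifnar1*-/- libraries, with a log2 fold change of 0.01 (95% interval -0.29 to 0.31).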

How the data were processed

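RNA-seq of 3 WT and 3 *Ifnar1*-/- monocyte libraries was used. Reads were mapped to GRCm38 by the authors with STAR 2.6.0c and RSEM 1.2.31 (per the submitters' processing notes). The deposited expected counts are RSEM estimates per gene, not normalized, and the deposited TPM values were corrected by the authors for transcript length and library size. The labels and the study's methods name different stranded kits. GENCODE M21 matched 54165 of 54232 gene identifiers. Expected counts were rounded and tested in edgeR 4.0.16 (R 4.3.3) with TMM, filterByExpr (minimum count 10), the quasi-likelihood test, and Benjamini-Hochberg adjustment over 11254 genes, without a block. SE is the log2 fold change divided by the root of F, and 95% intervals follow from it. Permutation tests were exact and two-sided, on log2(normalized CPM + 0.5) or the log2 TPM ratio. Alternatives were DESeq2 1.42.0, RLE, no filter, limma-voom (limma 3.58.1), limma on log2(TPM + 1), rRNA genes left out, an adjusted p alone, a replicate block, leaving out each library, and, added after seeing the data, overlapping genes summed. On simulated counts of 11254 genes, the edgeR test recovered 91.9% of 4-fold and 49.5% of 2-fold changes, with 6.71% of calls false. Named were every member, called genes of the other lists, and 11 further genes of these lists whatever their value. *Fasl*, *Relt*, *Tnip1*, signaling genes named only for separated groups, and single marker genes other than *Ly6c2* were chosen for mention with their values known. The members and lists were chosen with earlier results of these data known. An item of the marker lists is not reported here.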

Additional observations from a re-analysis of the deposited data

How the results depend on the processing

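*Tnfsf10* was called under every alternative, with log2 fold changes from 1.62 (log2(TPM + 1)) to 3.02. The number of members called was 1 in every fit except without the filter on low counts, where it was 2 (*Tnfsf10* and *Tnfsf12*) and so were 2 ligands. Receptors called were 0 in every fit. Without the filter, 2 genes under other symbols were called (*Cd40* and *Fasl*), and on log2(TPM + 1) 0. Leaving out 1 library gave 0 to 1 of these genes. Signaling genes called rose from 2 to 3 without the filter (*Mlkl*, *Rnf31*, and *Tnip1*). Their number fell to 1 with the replicate block (*Rnf31* lost, adjusted p = 0.0835 from edgeR), to 0 on log2(TPM + 1), and to between 0 and 1 when 1 library was left out. The replicate block changed no other call of a named gene. Deviations of same-numbered libraries correlated by 0.0906, 0.0278, and 0.275, and those of differently numbered libraries by -0.196 to 0.0920. The third libraries had the highest correlation, while WT library 1 correlated about equally with *Ifnar1*-/- libraries 1 and 2 (0.0906 and 0.0920). The labels do not say that the numbers mark recipients, so they were not taken as pairs in the main fit. The block gave differences of 0.52 for *Tnfrsf1b* over *Tnfrsf1a* and 0.23 for *Tnfsf13b* over *Tnfsf13*. Differences reversed on log2(TPM + 1) for *Ifnar1* (-0.29), *Tnfrsf22* (-0.21), *Tnfrsf1a* (-0.03), *Adam17* (-0.02), *Fas* (-0.01), and *Map3k7* (0.08). When 1 library was left out, *Tnfsf13b* over *Tnfsf13* ranged from -0.19 to 0.66, and log2 fold changes ranged from -0.26 to 0.54 for *Tnfrsf22*, -0.04 to 0.19 for *Tnfrsf12a*, -0.41 to 0.20 for *Tnfrsf8*, -0.03 to 0.13 for *Tnfrsf9*, -0.01 to 0.09 for *Tnfrsf1a*, -0.02 to 0.16 for *Tnfrsf14*, -0.04 to 0.08 for *Adam17*, and -0.05 to 0.10 for *Fas*. The cause was not tested. The median log2 fold change of all genes stayed between -0.02 and 0.02. Over all genes, 240 were called, against 419 in DESeq2, 872 without the filter, 128 on log2(TPM + 1), and 119 to 245 with 1 library left out (148 without WT library 3, 119 without *Ifnar1*-/- library 1, 120 without *Ifnar1*-/- library 3). The filter on low counts left 14 members untested, and low expression and limited depth cannot be told apart for them.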
